A study of Mus musculus with 6 samples.

Results

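Keratins are the intermediate filament proteins of epithelial cells. Type I and type II keratins assemble as obligate heteropolymers, so epithelia express them in pairs. In mouse epidermis the basal layer is known for Krt5 with Krt14, the suprabasal layers for Krt1 with Krt10, and injured or hyperproliferative epidermis for Krt6a, Krt6b, Krt16 and Krt17, while the hair follicle and simple epithelia have their own sets. Here the keratin gene family was followed in ear epidermis of mice with basal cell carcinoma (BCC), with and without Yap1. The members were all genes of the deposited table whose symbol is Krt directly followed by a number, with a letter suffix allowed, which gave 51 of 23337 genes. The pseudogene Krt72-ps and the Krtap, Krtcap and Krtdap genes were left out. Krt74, which the GENCODE M21 annotation lists as a transcribed unitary pseudogene, matched the symbol rule and was kept among the hair keratins.

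The libraries fell into 2 groups of 3. The knockout libraries came from mice of the genotype R26-SmoM2/+ Yapfl/fl K14CreER and the wild-type libraries from R26-SmoM2/+ K14CreER mice. Tamoxifen was given at 4 weeks of age to both, and the stage label of each library is 6 weeks after it. The growth protocol also names a later time, and the label was followed here. In both groups a tamoxifen-dependent Cre recombinase, driven by the promoter of keratin 14, itself a member of the family, switched on SmoM2, an activated form of the Hedgehog signal transducer Smoothened. Knockout cells in which that promoter was not active keep their floxed Yap alleles. The comparison asked which transcripts differ when Yap1, the co-activator restrained by Hippo signalling, is deleted in these tumours.

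Yap1 had 591, 773 and 1764 normalized counts (reads divided by the size factor of each library) in knockout libraries 1 to 3, against 5765, 6004 and 5573 in wild-type libraries 1 to 3, and was lower in each knockout library, least so in knockout library 3. Its log2 difference was −2.63 ± 0.39 (SE). DESeq2 called it between the groups (adjusted p = 1.4e-07), and limma, the main test here, did not (adjusted p = 0.517). Reads assigned to genes ran from 15405490 to 25260431 per library. In both groups libraries 1 and 2 have label codes that begin with DM22 and library 3 a code that begins with DM24. Xist, which female cells transcribe, reached 58654 normalized counts in the knockout DM24 library and 59594 in the wild-type one, against at most 15.1 under DM22 codes. Since these 2 libraries also had the fewest reads, the sex of the mice, the depth and whatever else the codes stand for cannot be told apart. Markers of other cells were also counted. Of 6 immune markers in the table, 1 was detected, Cd74 (log2 difference 0.75), with list sums of 269 to 527 normalized counts in knockout and 85.8 to 426 in wild type, and the defining transcript Ptprc had at most 3.36. Of 4 endothelial markers 1 was detected, Pecam1 (0.16), with sums of 48.2 to 86 in knockout and 26.8 to 87.1 in wild type. Of 5 melanocyte markers 3 were detected (median −0.06, 1 above 0, with Pmel at −0.06 and Dct at 0.32, although the mean of Dct was 73.9 in knockout and 74.3 in wild type), with sums of 162 to 225 in knockout and 124 to 317 in wild type. Of 5 muscle markers 1 was detected (−1.52), with sums of 19.0 to 21.5 in knockout and 14.3 to 45.4 in wild type. None passed limma or DESeq2, and their part in the keratin values was not tested.

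Of the 51 keratins, 33 were detected, meaning that their 6 libraries averaged 10 normalized counts or more. All 3 basal, all 6 suprabasal and all 4 wound keratins were detected, with 9 of 23 hair keratins, 3 of 5 simple-epithelial keratins and 8 of 10 others. The 18 that were not detected were Krt8 and Krt20 among the simple keratins, Krt13 and Krt76 of internal stratified epithelia, and 14 hair keratins. Krt33b, Krt39 and Krt40 had 0 reads throughout, which allows up to 2.47 to 3.90 normalized counts depending on the library (3 reads, counting error only). Members that passed the detection limit only because of high values in some libraries are counted among the 33, so counts over the 33 describe these libraries and are no test. Nearest to the limit, Krt9 averaged 13.2 normalized counts and was counted as detected, and Krt33a averaged 7.63 and was not.

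The genes lie in 2 clusters of the GRCm38 genome, by the GENCODE M21 annotation. The 27 type I genes other than Krt18 were found on chromosome 11 between 99232761 and 100269871. Krt18, a type I gene, and 22 type II genes were found on chromosome 15 between 101347444 and 102032027. Krt85 was not matched by its symbol and has no position or length here. Some members share sequence, and whether reads were split between copies is not given in the sources used here: 50.1% of the 50-base stretches of the Krt6b transcript also occur in a transcript of another gene, as do 45.5% of those of Krt6a, 37.6% of those of Krt16, 14.4% of those of Krt14, 11.1% of those of Krt27 and 10.9% of those of Krt25. Values for these 6 genes are therefore uncertain. For Krt5 the share was 8.52% and for Krt17 it was 4.00%.

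The upstream sequences of 22 of the 33 detected keratins were matched in RefSeq (GRCm38.p6) by symbol and searched over 250 bases before the start. The wound keratins Krt6a, Krt6b, Krt16 and Krt17 had no matched window and were not searched. Nor were Krt1, Krt4, Krt15, Krt19, Krt35, Krt80 and Krt222. The letters TATAAA, the core of a TATA box that places transcription starts, were found on the gene's strand in 9 of the 22, against 8.94% of all 27025 genes with a window. They were present in each of the 6 detected inner root sheath keratins, Krt25, Krt26, Krt27, Krt28, Krt71 and Krt73, and in Krt10, Krt12 and Krt32. GGAATG is the core that TEAD factors, the DNA-binding partners of YAP, are known to bind. Among the 22 searched it was found on either strand in Krt14 and Krt78 only, against 14.4% of all genes. TGANTCA, the core letters for AP-1, was found on either strand in none of the 22, against 7.82% of all genes. Such matches describe letters in a window and are not binding sites. The next 6 stretches are the 100 bases before each start. The first belong to the most abundant keratin, its partner gene, a suprabasal keratin, and the member with the largest difference between the groups on the log2(normalized count + 1) scale. The last belong to Krt25 and Krt28, both type I keratins of the inner root sheath. Capitals mark TATAAA or GGAATG. The RefSeq start of Krt14 lies inside the longer GENCODE M21 gene, so its stretch is upstream of the RefSeq transcript only.
Krt5, chr15:101712906-101713005, minus strand: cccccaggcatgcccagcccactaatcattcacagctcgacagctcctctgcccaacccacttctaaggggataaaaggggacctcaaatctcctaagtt
Krt14, chr11:100206031-100206130, minus strand: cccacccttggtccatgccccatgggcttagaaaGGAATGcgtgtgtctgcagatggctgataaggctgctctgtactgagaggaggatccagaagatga
Krt10, chr11:99389365-99389464, minus strand: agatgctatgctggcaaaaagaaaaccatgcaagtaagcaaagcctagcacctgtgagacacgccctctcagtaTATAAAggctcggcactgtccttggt
Krt24, chr11:99285263-99285362, minus strand: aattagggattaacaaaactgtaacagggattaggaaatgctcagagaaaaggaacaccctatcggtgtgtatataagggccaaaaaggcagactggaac
Krt25, chr11:99322952-99323051, minus strand: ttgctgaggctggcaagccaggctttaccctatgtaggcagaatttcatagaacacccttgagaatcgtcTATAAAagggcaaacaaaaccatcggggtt
Krt28, chr11:99374904-99375003, minus strand: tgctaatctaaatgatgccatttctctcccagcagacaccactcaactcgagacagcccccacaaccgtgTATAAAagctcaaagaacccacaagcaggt

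Among all keratins, Krt5, Krt17 and Krt14 had the highest levels in every library. Keratins took 3.06%, 3.27% and 4.00% of all reads in knockout libraries 1 to 3, against 3.02%, 3.61% and 3.08% in wild-type libraries 1 to 3. The group means were 3.44% ± 0.496 in knockout and 3.23% ± 0.325 in wild type (SD, n = 3), and the groups overlapped (exact permutation test over the libraries, two-sided, p = 0.6, where 3 against 3 allows no less than 0.1). In bulk libraries, fewer cells of a type and less RNA per cell cannot be told apart. Per kilobase of exon, the mean levels over the 6 libraries were 124718 normalized counts for Krt5, 114065 for Krt17 and 73440 for Krt14. Krt5 was first in 5 libraries and Krt17 in knockout library 2. Krt15 followed at 17398 and Krt6a at 11142 per kilobase, and Krt6a stood above Krt15 in both DM24 libraries. In knockout library 3 Krt10 and Krt1 also stood above Krt15, which ranked 7 there. Krt10 had 5362, Krt1 4207, Krt16 3620 and Krt79 1760 per kilobase, and their ranks between 5 and 10 also changed from library to library. With the longest transcript in place of all exons as length, Krt1 stood before Krt10. Krt24, Krt6b, Krt2, Krt42 and Krt80 lay between 370 and 980 per kilobase, and each of the other 19 detected members had a mean of at most 166 per kilobase.

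**Figure D1:**
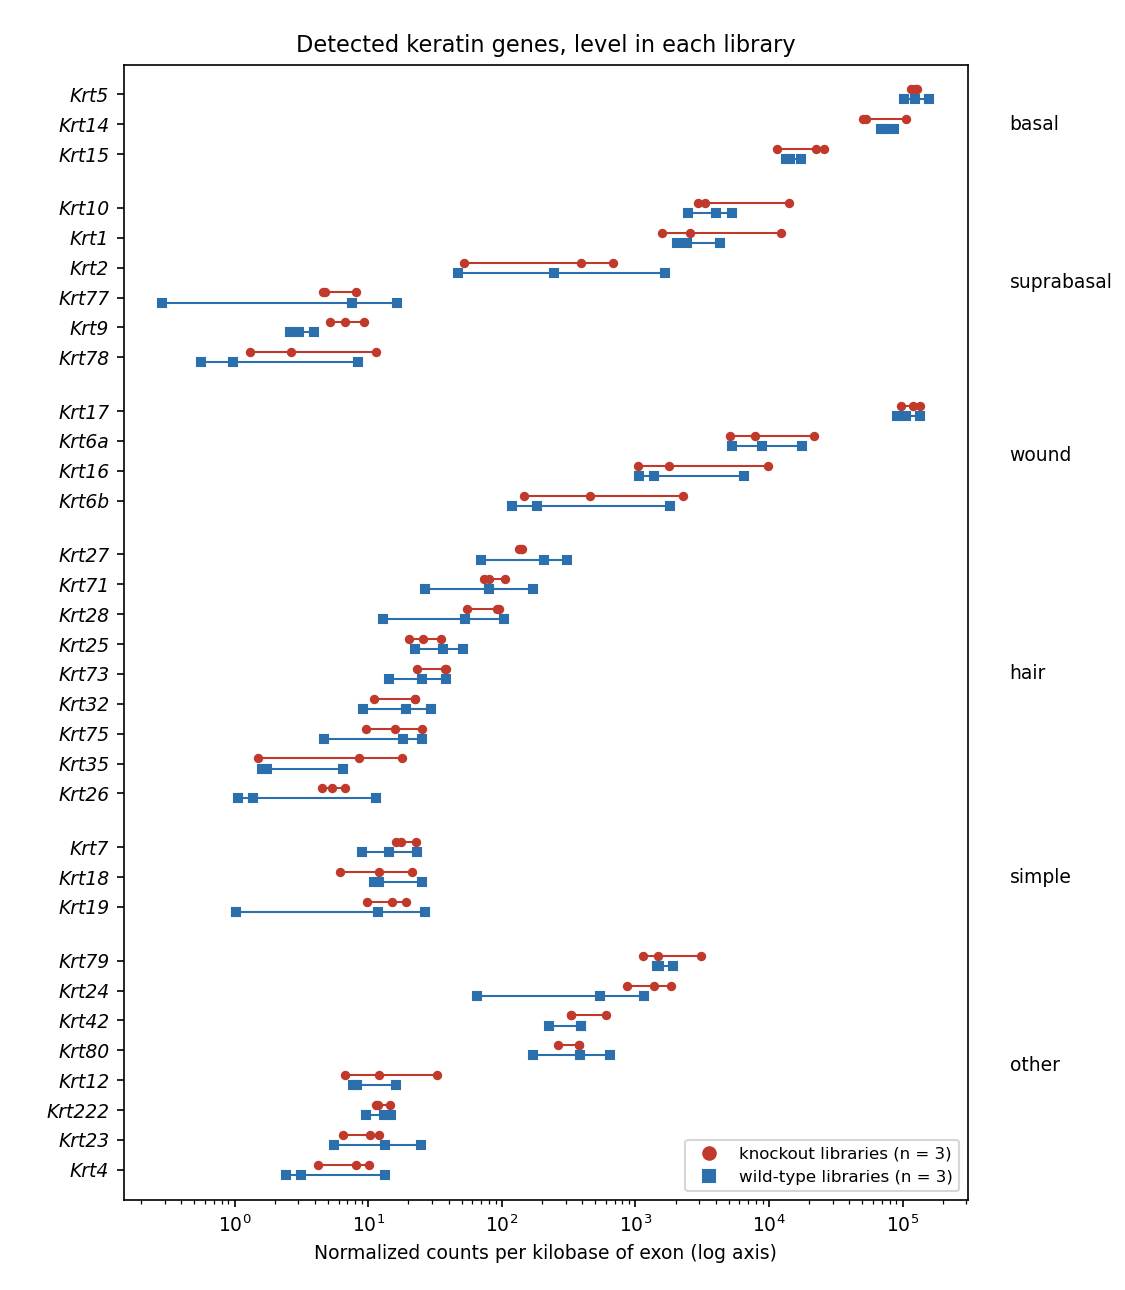
Level of each of the 33 detected keratins in the 6 libraries, in normalized counts per kilobase of exon on a log axis, by class. Circles are the 3 knockout libraries and squares the 3 wild-type libraries, with a line over their range. The groups overlapped for 32 of the 33 genes and did not for Krt9.

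No keratin passed the test between knockout and wild type. Limma, with Benjamini-Hochberg adjustment over 13671 genes, called 0 of the 33 (adjusted p from 0.882 for Krt9 upward), as it did with the replicate number as a block or the code series as a term. Limma called 0% of all genes and thus also missed Yap1, the deleted gene. Of the 33 keratins 1 had an unadjusted p under 0.05, against 5.55% of all genes. DESeq2 and edgeR, run on the reads recovered from the normalized counts, also called 0 of the 33, where DESeq2 called 0.49% of all genes and edgeR 0%. DESeq2 called 0 of the 33 with the replicate block (1.24% of all genes) and with a series term (2.17% of all genes). The groups did not overlap for 1 of the 33, Krt9, against 11% of all genes. The log2 difference of log2(normalized count + 1), knockout minus wild type, was above 0 for 25 of the 33 keratins, against 49% of all genes. Its median was 0.32 over the 33 and −0.00 over all genes. The medians within the same-numbered libraries were 0.06, 0.11 and 0.31, and without knockout library 3 the median over the 33 was 0.06. All members were measured in the same 6 libraries, so these are not 33 independent observations. The sign was the same in all 3 number pairs for 5 of the 33, against 32.6% of all genes.

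**Figure D2:**
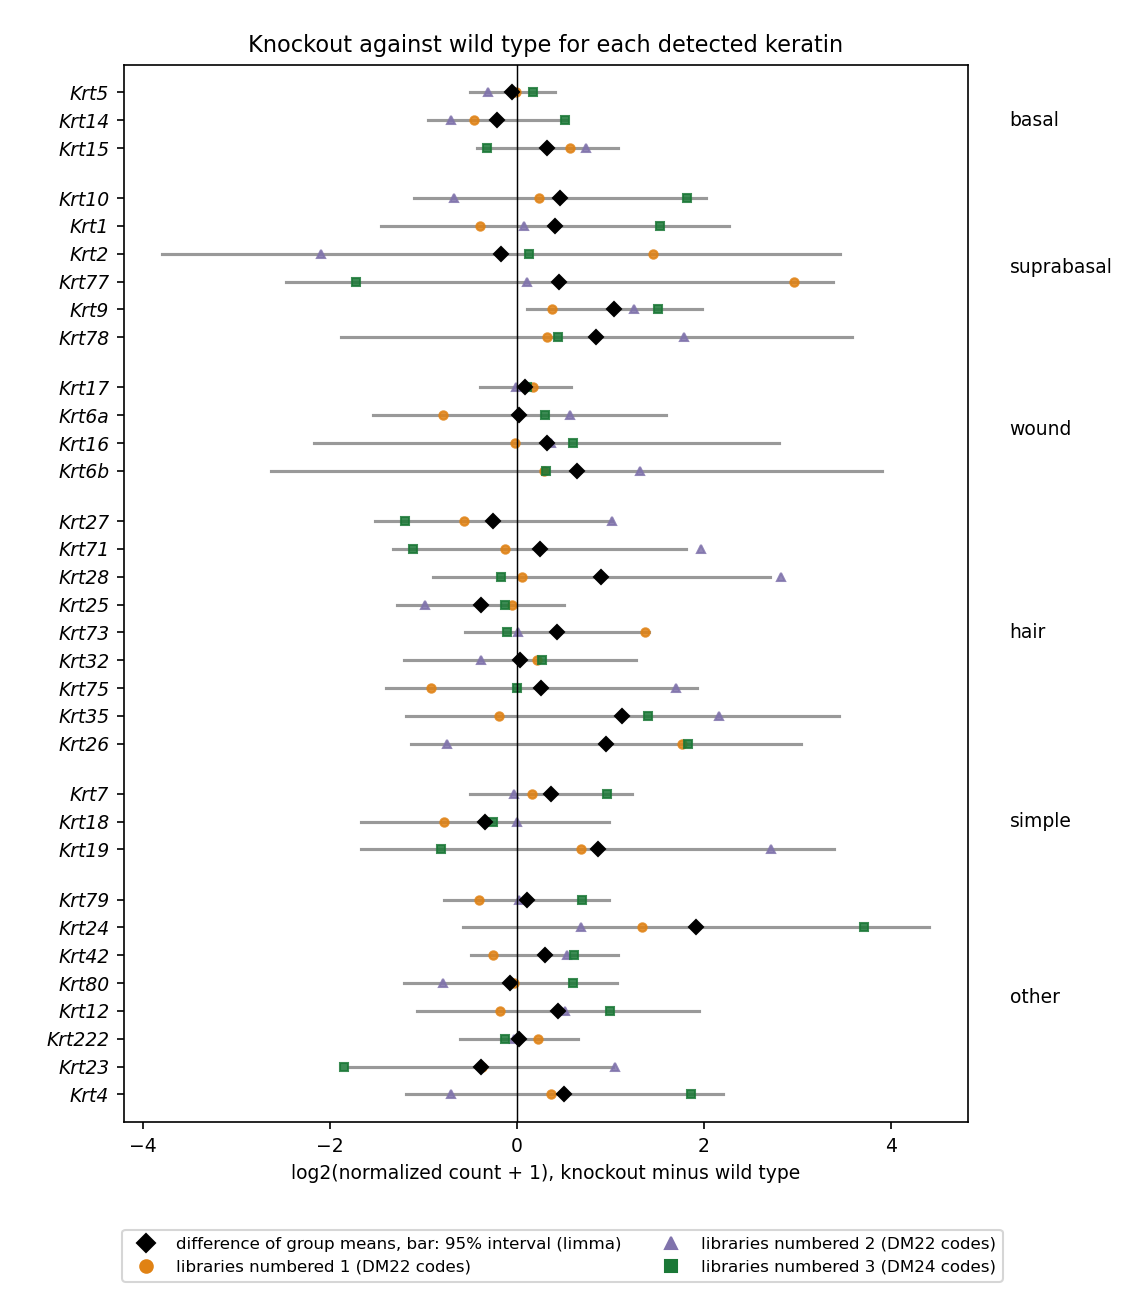
Difference of each detected keratin between knockout and wild type on the log2(normalized count + 1) scale. Diamonds are differences of the group means with 95% intervals from limma, and coloured symbols the differences between libraries of the same number. The interval includes 0 for 32 of the 33 genes. For Krt9 it runs from 0.11 to 1.97.

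The basal keratins Krt5, Krt14 and Krt15 did not pass in either direction. Krt5 (chromosome 15, 101707070 to 101712898, minus strand), the type II keratin of the basal layer, had 270345, 279823 and 251982 normalized counts in knockout libraries 1 to 3, against 271466, 347189 and 223225 in wild-type libraries 1 to 3. The knockout values lay inside the wild-type range, and the log2 difference was −0.05 with a 95% interval from −0.50 to 0.41. Krt14 (chromosome 11, 100203162 to 100207548, minus strand), its type I partner, had 89194, 93139 and 187297 normalized counts in knockout libraries 1 to 3, against 122119, 152009 and 130887 in wild-type libraries 1 to 3. Knockout libraries 1 and 2 lay below each wild-type library and knockout library 3 above each of them. The log2 difference was −0.21 ± 0.30 (SE). Krt15 (chromosome 11, 100131758 to 100135928, minus strand), a type I keratin of basal cells and of follicle stem cells, had 45344, 39434 and 20195 normalized counts in knockout libraries 1 to 3, against 30631, 23641 and 25212 in wild-type libraries 1 to 3. Here knockout libraries 1 and 2 lay above each wild-type library and knockout library 3 below each of them, the reverse of Krt14. Its log2 difference was 0.33 ± 0.31 (SE).

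The sign of the Krt14 and Krt15 differences was not the same in both code series. Within the number pairs 1 to 3 the log2 differences were −0.45, −0.71 and 0.52 for Krt14, and 0.57, 0.74 and −0.32 for Krt15. Without knockout library 3, DESeq2 called Krt14 lower (log2 difference −0.56, adjusted p = 0.00251) and Krt15 higher (0.68, adjusted p = 0.00393), where it called 1.68% of all genes. In that fit DM24 was represented by wild type alone, and limma called neither gene in it. Per kilobase, Krt15 over Krt14 was 0.506, 0.421 and 0.107 in knockout libraries 1 to 3, against 0.250, 0.155 and 0.192 in wild-type libraries 1 to 3. Krt14 over Krt5 was 0.412, 0.416 and 0.929 in knockout libraries, against 0.562, 0.547 and 0.733 in wild-type libraries. Basal keratins together took 2.09% ± 0.209 of reads in knockout and 2.09% ± 0.263 in wild type (SD, n = 3).

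Among the suprabasal keratins, Krt1 and Krt10 were highest in knockout library 3. Krt1 (chromosome 15, 101845426 to 101850794, minus strand), the type II keratin of differentiating keratinocytes, had 6938, 11292 and 54564 normalized counts in knockout libraries 1 to 3, against 9082, 10723 and 18834 in wild-type libraries 1 to 3. Krt10 (chromosome 11, 99385254 to 99389364, minus strand), its type I partner, had 6187, 6962 and 30022 in knockout libraries, against 5247, 11106 and 8488 in wild-type libraries. In the DM22 libraries the values of the groups were interleaved, and knockout library 3 stood above each other library for both genes. The log2 differences were 0.41 ± 0.77 and 0.46 ± 0.64 (SE), and without knockout library 3 both turned below 0. Suprabasal keratins took 0.0722%, 0.0931% and 0.431% of reads in knockout libraries 1 to 3, against 0.0706%, 0.120% and 0.137% in wild-type libraries 1 to 3.

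Krt2 (chromosome 15, 101810689 to 101818169, minus strand), a type II keratin of the upper spinous and granular layers, had 1775, 1016 and 135 normalized counts in knockout libraries 1 to 3, against 646, 4331 and 124 in wild-type libraries 1 to 3. Both DM24 libraries were the lowest, and the genotype difference of −0.17 had an interval from −3.79 to 3.45, too wide to exclude a large change in either direction. Krt9, a type I keratin best known from footpad skin, was the member whose groups did not overlap, at 13.4, 17.3 and 24 normalized counts in knockout libraries, against 10.1, 6.70 and 7.80 in wild-type libraries. These values stand for 80 reads over the 6 libraries, and the mean of Krt9 lay just inside the detection limit. It averaged 18.2 in knockout and 8.20 in wild type, so it passed that limit only through knockout. The log2 difference of 1.04 ± 0.39 (SE) missed the threshold in limma (adjusted p = 0.882), DESeq2 (0.904) and DESeq2 with the code series as a term (0.645). Krt77, a type II keratin of differentiating epithelium, ranged from 13.4 to 23.9 normalized counts in knockout and from 0.841 to 48.1 in wild type. Krt78, another such keratin, had 4.46, 9.07 and 39.2 normalized counts in knockout libraries 1 to 3, against 3.36, 1.92 and 28.6 in wild-type libraries 1 to 3, and was highest in both DM24 libraries.

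Of the wound keratins, Krt6a, Krt6b and Krt16 passed the limma test between the code series, and none passed between the genotypes. Krt17 (chromosome 11, 100256217 to 100261029, minus strand), a type I keratin of the outer root sheath and of injured epidermis that is also known from human BCC, had 186346, 209197 and 150500 normalized counts in knockout libraries 1 to 3, against 165540, 209876 and 140032 in wild-type libraries 1 to 3. The groups overlapped almost wholly, and the log2 difference was 0.09 with an interval from −0.40 to 0.58. Krt6a (chromosome 15, 101689910 to 101694307, minus strand), a type II keratin of the companion layer that injury induces, had 12455, 19075 and 52912 in knockout libraries, against 21556, 12866 and 42786 in wild-type libraries. Krt6b, its near copy on the same strand, had 328, 1015 and 5055 in knockout libraries, against 267, 408 and 4087 in wild-type libraries. Krt16, the type I partner of Krt6 in injured skin, had 1638, 2802 and 15514 in knockout libraries, against 1656, 2174 and 10211 in wild-type libraries. For Krt6a, Krt6b and Krt16 both DM24 libraries stood above all 4 DM22 libraries, and within each series the groups overlapped or differed by less than the series did. The genotype differences were 0.03 ± 0.64 for Krt6a, 0.64 ± 1.34 for Krt6b and 0.32 ± 1.02 for Krt16 (SE, log2 scale), and the sign of each turned in at least 1 fit that left out a library. Krt6b was higher in knockout in all 3 number pairs (0.29, 1.31 and 0.31). The median of the 4 wound keratins was 0.20, and −0.48 without knockout library 3 and 0.80 without wild-type library 3.

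In a fit that held genotype, limma called 4 of the 33 keratins between DM24 and DM22 libraries, against 6.75% of all genes, edgeR called the same number, against 6.39%, and DESeq2 called 9, against 15%. This contrast was chosen after the values were seen and sets 2 libraries against 4. The 4 limma calls were all higher in DM24: Krt6b by 3.38 ± 0.47 on the log2 scale (adjusted p = 0.0248), Krt78 by 2.75 ± 0.47 (adjusted p = 0.0336), Krt16 by 2.64 ± 0.25 (adjusted p = 0.0121) and Krt6a by 1.57 ± 0.27 (adjusted p = 0.0380), each with its SE. DESeq2 added Krt1 and Krt79 as higher in DM24 and Krt2, Krt80 and Krt17 as lower. Krt17 thus differed in the direction opposite to the other wound keratins, by −0.40 ± 0.14 (SE), a call by DESeq2 (adjusted p = 0.0146) that limma did not make (adjusted p = 0.117). The DM24 and DM22 libraries did not overlap for 15 of the 33, against 39.2% of all genes. The summed level of the sebaceous gland markers, all 10 of them detected, was 21711 normalized counts in the knockout and 21209 in the wild-type DM24 library, against 16696 to 19650 under DM22. Scd1 and Fasn held most of that sum. Fasn and Plin2 in the DM24 libraries lay inside their DM22 ranges, and each other member was higher in both DM24 libraries than in each DM22 library. Elovl3 had 207 in the knockout and 237 in the wild-type DM24 library, against 3.83 to 44.6 under DM22. Mgst1 had 792 and 592, against 145 to 269. The summed level of the fibroblast markers, 5 of 6 detected, was 1612 in the knockout and 3237 in the wild-type DM24 library, against 5402 to 9427 under DM22. Dcn held most of that sum, at 1127 in the knockout and 2193 in the wild-type DM24 library, against 5275 to 9253 under DM22. The collagen genes Col1a1, Col1a2 and Col3a1 went the other way, higher in both DM24 libraries than in each DM22 library. Pdgfra and Lum overlapped between the series. Of the sebaceous and fibroblast markers 0 passed between the genotypes. The sebaceous markers had a median log2 difference of 0.27 with 10 of 10 above 0, and the fibroblast markers one of −0.15 with 1 of 5 above 0. Among the sebaceous markers with a mean of at least 50, Elovl3 (1.01) and Soat1 (0.70) led. The means of Elovl3 were nearly equal, 87.8 ± 105 normalized counts in knockout and 84.1 ± 132 in wild type (SD, n = 3). The largest differences of the fibroblast markers were those of Col3a1 (1.60 ± 2.49) and Dcn (−0.39 ± 0.83, both SE). For Col3a1 the mean was lower in knockout, 71.5 ± 82.6 normalized counts against 123 ± 211 in wild type (SD, n = 3), since wild-type libraries 1 and 2 had 0 and 1.92 and weigh most on the log scale. Their part in the keratin values was not tested.

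**Figure D3:**
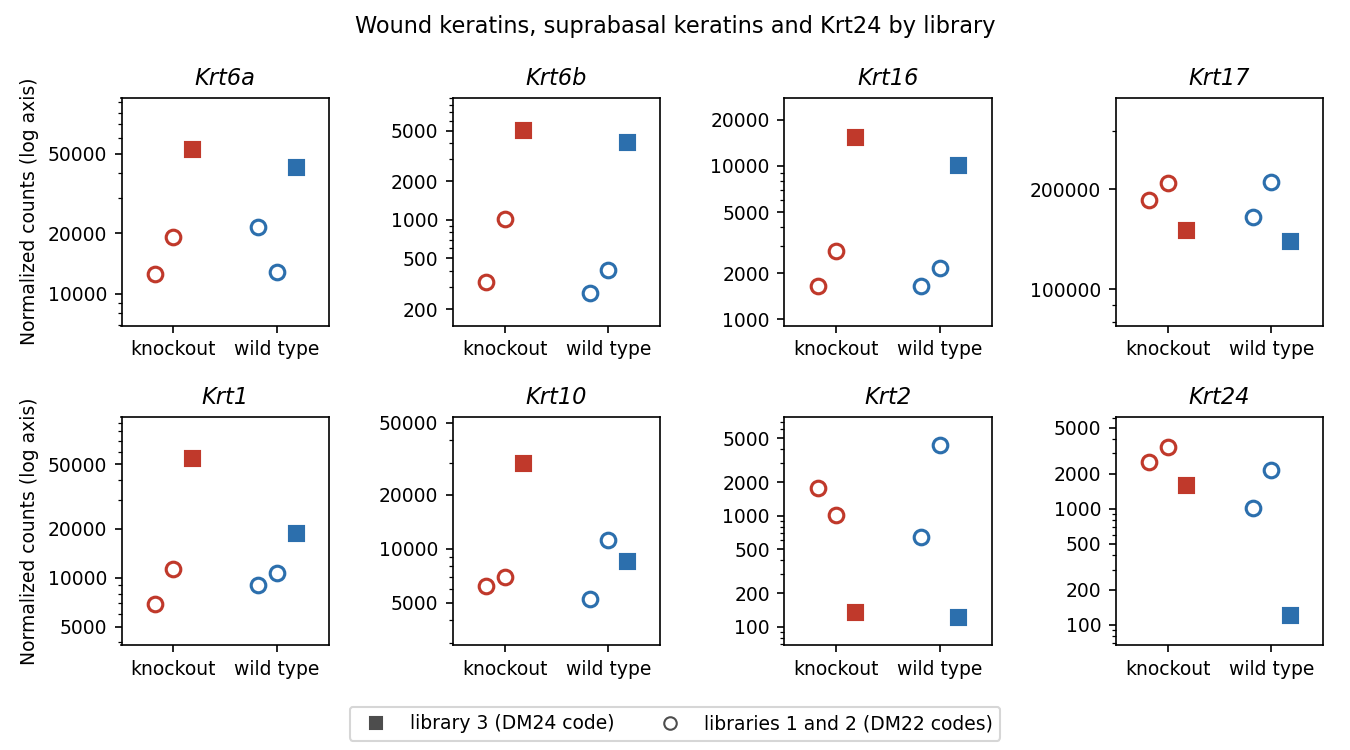
Normalized counts (log axes that differ between panels and do not start at 0) of the wound keratins Krt6a, Krt6b, Krt16 and Krt17, the suprabasal keratins Krt1, Krt10 and Krt2, and Krt24. Filled squares are the DM24 libraries and open circles the DM22 libraries, with knockout on the left. Krt6a, Krt6b and Krt16 are higher, and Krt2 and Krt17 lower, in both DM24 libraries than in each DM22 library.

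Hair keratins had low counts in both groups. They took 0.00404% ± 0.000388 of reads in knockout and 0.00416% ± 0.00203 in wild type (SD, n = 3). Krt27 and Krt71 had the highest levels of them per kilobase. Krt27, a type I keratin of the inner root sheath, had 216, 219 and 207 normalized counts in knockout libraries 1 to 3, against 319, 108 and 477 in wild-type libraries 1 to 3. Krt71, a type II keratin that pairs with it, had 161, 231 and 174 in knockout libraries, against 175, 58.4 and 377 in wild-type libraries. Wild-type library 2 was the lowest and wild-type library 3 the highest for both, with the knockout libraries between them. Krt28 ranged from 89.2 to 155 in knockout and from 21.1 to 169 in wild type, Krt25 from 40.5 to 69.6 and from 44.2 to 101, Krt73 from 50.6 to 83.3 and from 31.1 to 82.3, and Krt26 from 16.4 to 24.7 and from 3.90 to 42.1. Without wild-type library 2, DESeq2 called Krt27 lower in knockout (log2 difference −0.89, adjusted p = 0.0294, with 1.63% of all genes called), and limma did not.

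Krt75, the type II keratin of the companion layer, ranged from 31.2 to 82.2 normalized counts in knockout and from 15.3 to 81.9 in wild type. Of the hair shaft keratins, Krt32 and Krt35, known from the hair cuticle and matrix, were detected, at 19.0 to 38.7 and 3.57 to 43.0 normalized counts in knockout and 15.6 to 50.7 and 3.83 to 15.6 in wild type. Krt35 averaged 22.4 normalized counts in knockout and 7.88 in wild type, so it passed the detection limit only through knockout. Its genotype difference was 1.13 ± 0.96 (SE, log2 scale). In fits that left out 1 library it was 0.41 to 2.48, the lowest without knockout library 3 and the highest without wild-type library 3. Over the 9 detected hair keratins 0 passed, 7 lay above 0, and the median was 0.26. That median was 0.079 by DESeq2, 0.083 by limma without wild-type library 2, and −0.052 by DESeq2 without wild-type library 1. For Krt32 and Krt71 the log2 difference lay above 0 while the mean was lower in knockout (32.0 against 33.0 and 189 against 203 normalized counts in wild type). The keratin-associated proteins, which cross-link keratins in the hair shaft, were near absent too, with 1 of 52 Krtap genes at a mean of 10 or more. The list of other hair matrix, shaft and root sheath genes had 10 of 15 members detected, with 3 above 0 and a median log2 difference of −0.18, and summed to between 4919 and 9530 normalized counts in knockout and between 5660 and 11833 in wild type. Msx2, a homeobox factor of the matrix, had a difference of −0.64 that did not pass. Tchh, trichohyalin of the inner root sheath, had 581 ± 41.9 in knockout and 835 ± 149 in wild type (SD, n = 3), a log2 difference of −0.51. It passed DESeq2 with a series term (adjusted p = 0.0321), where 2.17% of all genes were called. It did not pass DESeq2 without a term (0.225) or with the replicate block (0.214), nor limma (0.733).

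The simple-epithelial keratins were the least abundant class. Krt7, a type II keratin of simple and ductal epithelia, had 113, 160 and 125 normalized counts in knockout libraries 1 to 3, against 101, 163 and 63.7 in wild-type libraries 1 to 3. Krt18, the type I partner of Krt8, ranged from 8.92 to 30.3 in knockout and from 16.0 to 36.4 in wild type, and Krt19, a type I keratin of simple epithelia and of the follicle bulge, from 18.1 to 35.7 and from 1.92 to 49.4. Krt8 was not detected, with 5.06 to 8.92 in knockout and 2.87 to 11.7 in wild type, and Krt20 had at most 5.75 in any library. Krt8, Krt18 and Krt20 also mark Merkel cells of the skin. Of 9 Merkel cell markers in the table, 1 was detected, the defining factor Atoh1 had at most 1.78 normalized counts in any library, and the list summed to 18.1 to 45.5 in knockout and 21.0 to 46.8 in wild type. The median log2 difference of Krt7, Krt18 and Krt19 was 0.37, with 2 of the 3 above 0, and none passed.

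Of the other keratins, Krt24 had the largest difference between the groups of all 33 on the log2(normalized count + 1) scale, whereas by DESeq2 that of Krt35 was larger (1.53, against 1.22 for Krt24). Krt35 passed the detection limit only through knockout, so this order is no test. Krt24 (chromosome 11, 99279959 to 99285262, minus strand), a type I keratin of differentiating keratinocytes, had 2552, 3441 and 1602 normalized counts in knockout libraries 1 to 3, against 1007, 2141 and 121 in wild-type libraries 1 to 3. Each knockout library was higher than the wild-type library of its number, and the groups overlapped because wild-type library 2 exceeded knockout library 3. The means were 2532 ± 920 in knockout and 1090 ± 1013 in wild type (SD, n = 3), and the log2 difference was 1.91 with an interval from −0.58 to 4.41. The differences within the pairs were 1.34, 0.68 and 3.72. It did not pass limma (adjusted p = 0.933), DESeq2 with the replicate block (0.521) or DESeq2 with the code series as a term (0.321). Of the 6 fits without 1 library, its lowest log2 difference by limma or DESeq2 was 0.69 and its highest 2.78.

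Krt79 (chromosome 15, 101929332 to 101940324, minus strand), a type II keratin known in mouse from the hair canal and sebaceous duct, had 5384, 7046 and 14652 normalized counts in knockout libraries 1 to 3, against 7130, 6934 and 9055 in wild-type libraries 1 to 3. Krt80 (chromosome 15, 101347444 to 101370162, minus strand), a type II keratin widely expressed in epithelia, had 2401, 2406 and 1677 in knockout libraries, against 2445, 4142 and 1104 in wild-type libraries. For both the groups overlapped and the pairs disagreed in sign. Krt42, a type I gene next to Krt17, ranged from 578 to 1056 in knockout and from 397 to 696 in wild type. Krt222, Krt12, Krt23 and Krt4 had means of 41.4, 25.8, 19.0 and 14.7 normalized counts over the 6 libraries, with 0 called.

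The balance of type I and type II keratins was compared as summed levels per kilobase. Type I over type II was 1.53, 1.55 and 1.56 in knockout libraries 1 to 3, against 1.45, 1.43 and 1.49 in wild-type libraries 1 to 3. All 3 knockout libraries lay above all 3 wild-type libraries, with means of 1.55 ± 0.0128 in knockout and 1.46 ± 0.0300 in wild type (SD, n = 3) and a difference of 0.0876 (exact permutation test, two-sided, p = 0.1, the smallest that 3 against 3 allows). Without the wound keratins the ratio was 0.641, 0.613 and 1.03 in knockout libraries, against 0.708, 0.649 and 0.866 in wild-type libraries, and the groups overlapped (exact permutation test, two-sided, p = 1.0). Krt17 over Krt5 per kilobase was 0.976, 1.06 and 0.846 in knockout, against 0.864, 0.856 and 0.889 in wild type, again with overlap. Wound keratins together took 0.971%, 1.12% and 1.14% of reads in knockout libraries, against 0.890%, 1.03% and 0.984% in wild-type libraries (exact permutation test, two-sided, p = 0.3). Krt17 made up most of the wound sum in each library, from 186346 of 200768 normalized counts in knockout library 1 to 150500 of 223981 in knockout library 3. The wound share, the simple-epithelial share and the type I over type II ratio were each higher in knockout in 3 of 3 number pairs (exact permutation test within pairs, two-sided, p = 0.25 for each, the smallest that 3 pairs allow). The shares of all keratins and of suprabasal keratins were higher in 2 of 3 pairs, and the basal and hair shares in 1 of 3. With that smallest p, none of these quantities could have passed, so the pair counts are description only. For the wound and simple-epithelial shares the count also depends on the numbering within DM22. Knockout library 1 lay below wild-type library 2 in both, at 0.971% against 1.03% and 0.000807% against 0.000871%.

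**Figure D4:**
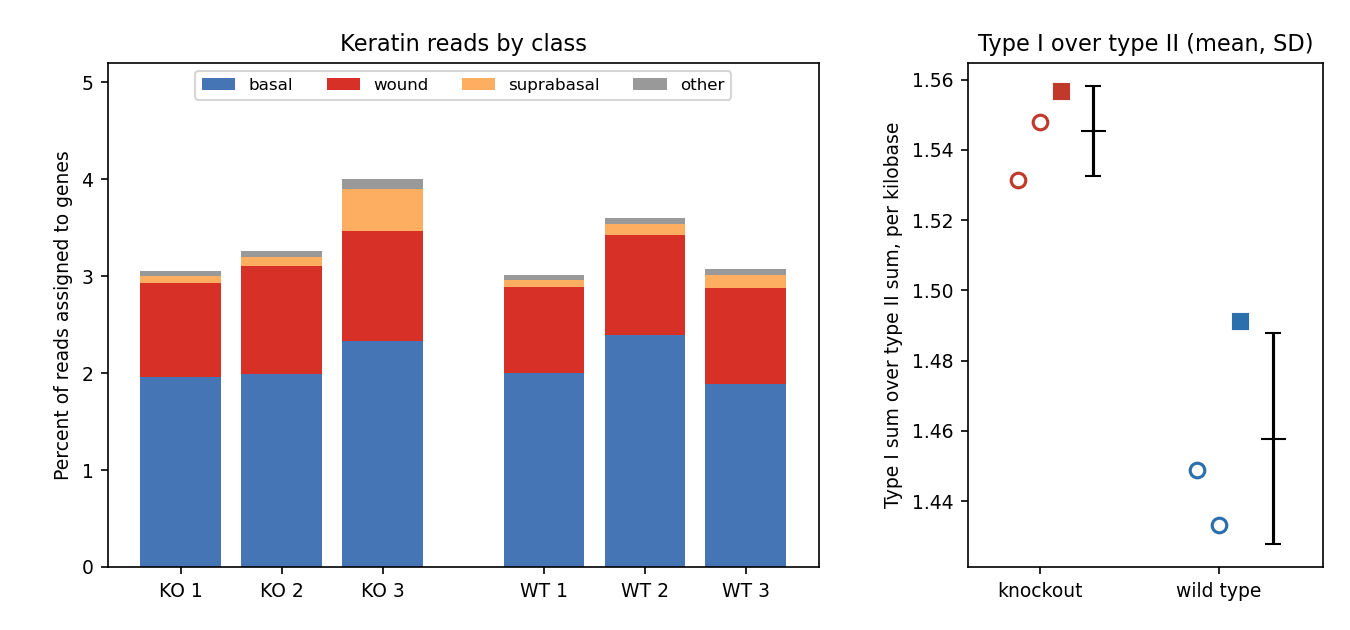
Left, percent of reads assigned to genes taken by basal, wound, suprabasal and other keratins in each library (hair and simple keratins are too few to see). Right, summed type I over summed type II keratin level per kilobase by library (circles DM22, squares DM24), with mean and SD (n = 3) and an axis that does not start at 0. Knockout library 3 has the largest suprabasal share, 0.431%, and the knockout ratios lie above the wild-type ratios.

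Genes for proteins that anchor or bind keratin filaments did not pass either. Of 16 listed linkers and binding proteins, which include plectin, desmoplakin and the plakophilins, 14 were tested, 0 were called by limma or DESeq2 in the designs run, 10 lay above 0, and the median log2 difference was 0.08. The members with the largest differences were the epiplakin gene Eppk1, at 2538 ± 720 in knockout and 1886 ± 462 in wild type, and Dst, which encodes the hemidesmosomal linker BPAG1, at 10506 ± 905 in knockout and 12361 ± 2652 in wild type (SD, n = 3). Of 15 other intermediate filament genes 8 were tested and 0 called, with 5 above 0 and a median of 0.13. Synm, which encodes synemin, had a difference of −0.35 that did not pass. The groups did not overlap for 1 of the 8 tested, the lamin gene Lmnb1, against 11% of all genes. Lmnb1 had 1669 ± 129 in knockout and 2057 ± 134 in wild type (SD, n = 3). Its log2 difference of −0.30 ± 0.09 (SE) missed the threshold in limma (adjusted p = 0.733) and in DESeq2 (0.306).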

How the data were processed

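The authors deposited 1 table of normalized read counts, a signal made of reads per gene divided by a size factor per library. Per the submitters' processing notes STAR 2.5, DESeq2 1.18.1 and mm10 (GRCm38) were used. The counter, annotation and strand setting are not given in the sources used here. All values were whole multiples of a step per library (tolerance 0.001 reads), from which the reads were recovered. The labels do not tie libraries to animals. By Xist and Ddx3y, library 3 of each group came from an animal of the other sex than libraries 1 and 2. Whether libraries 1 and 2 came from separate animals is not given, so part of the spread behind each p-value may be technical. Replicates of a group differed by more than counting noise.

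Genes with a mean of at least 10 (13671) were tested by limma 3.58.1 (R 4.3.3, trend, robust) on log2(normalized count + 1), 3 against 3, no covariate, with Benjamini-Hochberg adjustment at 0.05. That scale understates changes of low genes. edgeR 4.0.16 and DESeq2 1.42.0, without independent filtering, were run on the recovered reads. The fits were tested on simulated reads. Those held no difference between the code series, so the check does not cover the series difference in these libraries. Deviations of same-numbered libraries from their group means correlated by 0.333, 0.327 and 0.694, each above 0.1, so libraries of 1 number were treated as pairs in the block. Within DM22, knockout library 1 with wild-type library 2 gave 0.505, and knockout library 2 with wild-type library 1 gave 0.260. The correlations thus set DM24 apart from DM22 but do not single out the numbering within DM22. The labels give no other ground for the pairing. Members, classes and lists were chosen with earlier results of these data known. Each detected keratin is named in its class, with values in every library for a mean of at least 1000, a call in a fit of all libraries, or a log2 difference of at least 1 at a mean of at least 50. From each list up to 2 members with the largest difference at a mean of at least 50 are named, plus any that passed. Per-library values of Krt7, Krt9, Krt27 and Krt71 were added after they were seen. The 10 lists hold 93 genes.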

Additional observations from a re-analysis of the deposited data

Results flagged for a closer look

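The difference between knockout and wild type was compared between the code series, DM24 with 1 pair of libraries and DM22 with 2. A term for genotype by series passed DESeq2 for Krt14, with a log2 value of 1.11 (adjusted p = 0.00605), and for Krt1, with 1.66 (adjusted p = 0.0148), where DESeq2 called 0.249% of all genes and limma 0%. By limma the adjusted p was 0.867 for both. In DM24 the term rests on 1 knockout against 1 wild-type library, which are assumed to vary like the DM22 libraries. For Krt15, Krt80 and Krt5 the DM24 pair went against both DM22 pairs, at −0.32, 0.60 and 0.17 on the log2 scale, a difference that neither tool called. Such a reversal was present for 8 of the 33 detected keratins and for 24.5% of all genes, so it is no result about the keratins.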

How the results depend on the processing

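Limma and edgeR called 0 genes between knockout and wild type (limma: 759 at an unadjusted p under 0.05), DESeq2 67, DESeq2 with a series term 297, and limma on the DM22 libraries alone 2. With the replicate block DESeq2 called 169 genes and limma 0, and the block changed no keratin call. Leaving out 1 library gave 0 to 235 genes and 0 to 2 keratins. With a mean of at least 50 as the limit, 21 keratins were detected. The basal median was 0.18 after quantile normalization. Without 1 library the medians ran from −0.088 to 0.47 for detected, −0.20 to 0.12 for basal, −0.33 to 1.14 for suprabasal, −0.89 to 1.26 for wound, −0.052 to 0.46 for hair and −0.37 to 0.47 for simple keratins.

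Of 483 single-gene values under settings that kept both groups whole or used DM22 alone, 22 turned sign. With DM22 alone these were Krt1 −0.16, Krt10 −0.22, Krt23 0.34, Krt27 0.22, Krt32 −0.080, Krt4 −0.17, Krt6a −0.11 and Krt79 −0.19, and after quantile normalization Krt14 0.18, Krt17 −0.18, Krt222 −0.089 and Krt32 −0.083. By DESeq2 and edgeR Krt32 had −0.042 and −0.039, Krt71 −0.10 in both and Krt77 −0.46 and −0.42, and with a series term Krt32 had −0.0065 and −0.0072 and Krt77 −0.083 and −0.11. Without 1 library the log2 differences that turned sign had these ranges: Krt1 −0.50 to 1.36, Krt2 −1.56 to 1.34, Krt4 −0.15 to 1.39, Krt5 −0.20 to 0.12, Krt10 −0.33 to 1.16, Krt12 −0.17 to 1.10, Krt14 −0.56 to 0.059, Krt16 −1.07 to 1.81, Krt17 −0.047 to 0.26, Krt18 −0.80 to 0.17, Krt19 −0.37 to 1.74, Krt23 −0.96 to 0.099, Krt26 −0.20 to 2.17, Krt27 −0.89 to 0.20, Krt32 −0.41 to 0.41, Krt42 −0.032 to 0.46, Krt6a −0.70 to 0.72, Krt6b −1.24 to 2.67, Krt71 −0.54 to 0.87, Krt75 −0.44 to 0.73, Krt77 −1.02 to 1.42, Krt78 −0.71 to 2.72, Krt79 −0.31 to 0.50, Krt80 −0.60 to 0.38, Krt222 −0.15 to 0.17. The cause was not tested. With 3 libraries a group, the intervals of low or variable members such as Krt2 and Krt6b span changes of several fold.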
